A study of Mus musculus with 200 samples.

Results

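Whole mouse embryos were profiled at embryonic day 11.5, when red cells of the first wave circulate and the fetal liver has begun to make the next wave, and 35 genes of the red cell lineage and of heme synthesis were followed through them. The genes were listed by name for their known roles: transcription factors of the lineage, the erythropoietin receptor, proteins of the red cell membrane and its skeleton, other erythroid proteins, the enzymes of heme synthesis and the mitochondrial carriers that serve it. Of the 35 symbols, 34 were found among the 22033 genes of the count tables, 33 under the listed symbol and Sptb under its older symbol Spnb1, and Ahsp was found under neither its symbol nor a synonym and was not analysed here. The 34 genes comprised 8 transcription factors, 1 receptor, 10 membrane and skeleton genes, 5 other erythroid genes, 7 heme enzymes and 3 carriers, with Gata1 and Alas2 on the X chromosome and the other 32 on autosomes. In the backcross embryos 32 of the 34 averaged at least 5 RPM (reads scaled to a common library size), while Trim58 averaged 0.114 RPM and Car1 0.351 RPM and were left out of the tests.

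The embryos came from crosses of the inbred strain C57BL6/J (B6) and the wild-derived strain Castaneus (Cast), written with the mother first. There were 8 B6xCast F1 embryos, replicates 1 to 3 from litter 3 and replicates 4 to 8 from litter 5, and 8 CastxB6 F1 embryos, replicates 1 to 4 from litter 1 and replicates 5 to 8 from litter 2. F1 animals were then backcrossed to B6, which gave 89 N2 embryos of B6 mothers and F1 fathers in 17 litters and 65 N2 embryos of F1 mothers and B6 fathers in 12 litters. Every N2 embryo was therefore either homozygous for B6 or heterozygous at each autosomal gene, and all F1 mothers had B6 mothers themselves. Stage was recorded as the number of somites, the paired blocks along the trunk that are added as the embryo grows: 42 to 57 in 85 embryos of B6 mothers, 43 to 54 in 62 embryos of F1 mothers, 58 to 63 in F1 litter 3, 48 to 50 in litter 5, 41 to 43 in litter 1 and 46 to 48 in litter 2. Sequencing read the 3′ ends of transcripts, at 15703888 to 38234229 counted reads in an F1 embryo and 245220 to 5370322 in an N2 embryo. The N2 libraries were run in 14 lanes, of which 8 held only embryos of B6 mothers, 5 only embryos of F1 mothers and 1 both, so lane and mother could hardly be told apart. Replicate embryos are separate animals, but embryos of a litter share a mother.

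Red cell production is driven by a small set of DNA-binding factors: GATA1, with its partner FOG1 (the product of Zfpm1), and the complex of TAL1 with LMO2 switch on the lineage, and KLF1 activates membrane, heme and adult globin genes as the cell matures. Heme is made in a chain that starts in mitochondria with ALAS2, passes through the cytosol with ALAD, UROS and UROD, and returns to mitochondria with CPOX, PPOX and FECH, which inserts iron. In a whole embryo the RNA of blood and fetal liver is mixed with that of all other tissues, in which members may also be made. Fewer erythroid cells, less RNA per cell and a change in another tissue therefore cannot be told apart in any of the values given here.

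The promoters of 5 members on which the results turn are shown from 250 bases before to 50 bases after the annotated start, on the gene's strand, from RefSeq on GRCm38.p6. Capitals mark matches to the GATA motif, which is AGATAA in full, with T allowed as its first base and G as its last, and matches to the CACCC-type motif, written CCNCNCCC, the latter being the kind of site bound by KLF1, on either strand. Tspo2 (chr17:48451452-48451751) had the steepest change with stage, Kel (chr6:41704276-41704575), Klf1 (chr8:84901732-84902031) and Rhag (chr17:40810899-40811198) are membrane genes and a factor that rose with it in the N2 embryos, and Hemgn (chr4:46404134-46404433) fell there.
Tspo2: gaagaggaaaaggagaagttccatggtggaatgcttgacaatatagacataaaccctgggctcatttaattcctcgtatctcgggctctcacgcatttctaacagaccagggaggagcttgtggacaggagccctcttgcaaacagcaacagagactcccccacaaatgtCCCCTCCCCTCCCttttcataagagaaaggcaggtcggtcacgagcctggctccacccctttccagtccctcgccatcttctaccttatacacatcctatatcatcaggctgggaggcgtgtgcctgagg
Kel: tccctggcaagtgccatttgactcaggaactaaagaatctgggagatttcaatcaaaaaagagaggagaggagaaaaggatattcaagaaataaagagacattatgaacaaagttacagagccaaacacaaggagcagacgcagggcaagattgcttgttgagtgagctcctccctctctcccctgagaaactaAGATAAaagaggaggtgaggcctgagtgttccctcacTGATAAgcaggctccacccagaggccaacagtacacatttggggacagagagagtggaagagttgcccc
Klf1: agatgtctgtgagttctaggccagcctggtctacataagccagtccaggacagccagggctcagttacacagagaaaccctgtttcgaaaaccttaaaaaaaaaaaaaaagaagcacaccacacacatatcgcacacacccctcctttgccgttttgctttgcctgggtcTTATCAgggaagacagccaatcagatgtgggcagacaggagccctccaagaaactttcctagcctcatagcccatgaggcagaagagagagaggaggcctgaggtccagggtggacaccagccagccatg
Rhag: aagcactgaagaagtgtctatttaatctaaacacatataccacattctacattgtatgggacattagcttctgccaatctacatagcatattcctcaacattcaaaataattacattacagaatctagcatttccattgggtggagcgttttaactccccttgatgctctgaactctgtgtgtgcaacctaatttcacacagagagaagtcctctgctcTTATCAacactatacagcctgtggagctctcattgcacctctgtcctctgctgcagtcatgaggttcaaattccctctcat
Hemgn: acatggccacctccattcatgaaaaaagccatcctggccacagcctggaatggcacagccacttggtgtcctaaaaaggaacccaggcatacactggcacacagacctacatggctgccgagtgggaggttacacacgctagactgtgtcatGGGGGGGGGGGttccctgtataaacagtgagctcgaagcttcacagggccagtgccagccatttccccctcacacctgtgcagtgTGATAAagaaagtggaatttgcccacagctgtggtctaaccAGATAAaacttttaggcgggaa
Kel carried GATA letters 56 and 19 bases before the start, Hemgn 13 bases before and 29 bases after it, Klf1 80 bases before and Rhag 31 bases before, and Tspo2 had no GATA letters in this window. A promoter was listed for 26 of the 34 members, and 16 of these 26 genes (61.5%) held GATA letters, against 33% of 27025 genes with a promoter of the same length. CCNCNCCC was present in 19 of 26 (73.1%), against 51.9% of all genes, and the stricter CACCC box CCACACCC, each match of which is also a CCNCNCCC match, in 0 of 26, against 4.09%. The E-box letters CAGNTG stood in 10 of 26 (38.5%), against 54.6%, and the NF-E2 letters TGAGTCA in 2 of 26 (7.69%), against 5.95%. Both GATA and CCNCNCCC letters within the same promoter were held by 8 of 26 (30.8%), against 11.7%. These counts describe letters in a 300-base window and name no bound site.

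A part of the set rose with stage in the N2 embryos. Over the 147 with a somite number, 17 of the 32 members correlated positively with somite number, where 14.1% of 10007 genes did, 1 correlated negatively, where 7.97% did, and 14 did not pass the threshold (Spearman's correlation, Benjamini-Hochberg q under 0.05). The median rho of the members was 0.227 and that of all genes was -0.024. By role, 4 of 8 transcription factors, 8 of 10 membrane and skeleton genes and 4 of 7 heme enzymes rose, and neither the receptor nor any of the 3 carriers did. After TMM scaling 13 members rose and 1 fell, and the genes called overall split into 978 rising and 1115 falling, against 1408 and 798 in RPM. Lane accounted for much of the spread between embryos, from 30.4% of the variance of Ermap to 88% of that of Lmo2. With lane regressed out of the ranks, 15 members rose (8.5% of all genes) and 1 fell (3% of all genes), 31 of 32 had a positive rho and the median was 0.220, against 0.021 for all genes.

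Tspo2, which encodes a cholesterol-binding relative of the mitochondrial translocator protein made in erythroid cells (mm9 chr17:48587281-48590847), had the steepest rise. In the 21 embryos with at most 45 somites its RPM ran from 0 to 15.2 with a median of 3.25, and in the 14 embryos with at least 53 somites from 3.42 to 50.5 with a median of 17.4. The means were 4.65 ± 3.95 RPM (SD, n = 21), 11.8 ± 7.68 RPM (SD, n = 112) at 46 to 52 somites and 21.3 ± 12.1 RPM (SD, n = 14), a 4.59-fold range. Spearman's rho was 0.673 (q = 7.8e-18) and Pearson's r 0.647, each with a permutation p of 1e-05, the smallest that 100000 permutations can give, and with the 2 embryos of most extreme stage left out r was 0.621. The youngest and oldest embryos overlapped, but the median of the oldest lay above the highest of the youngest. Cldn13, a claudin of erythroid membranes (mm9 chr5:135390119-135391396), came next, from 20.4 ± 10.8 RPM (SD, n = 21; 8.08 to 44.8, median 17.6) to 56.9 ± 29.3 RPM (SD, n = 14; 15.9 to 112, median 49.9), with rho 0.524 and r 0.490, both with that smallest permutation p, and r 0.452 without the 2 extreme embryos. Here too the median of the oldest embryos exceeded the highest of the youngest.

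**Figure D1:**
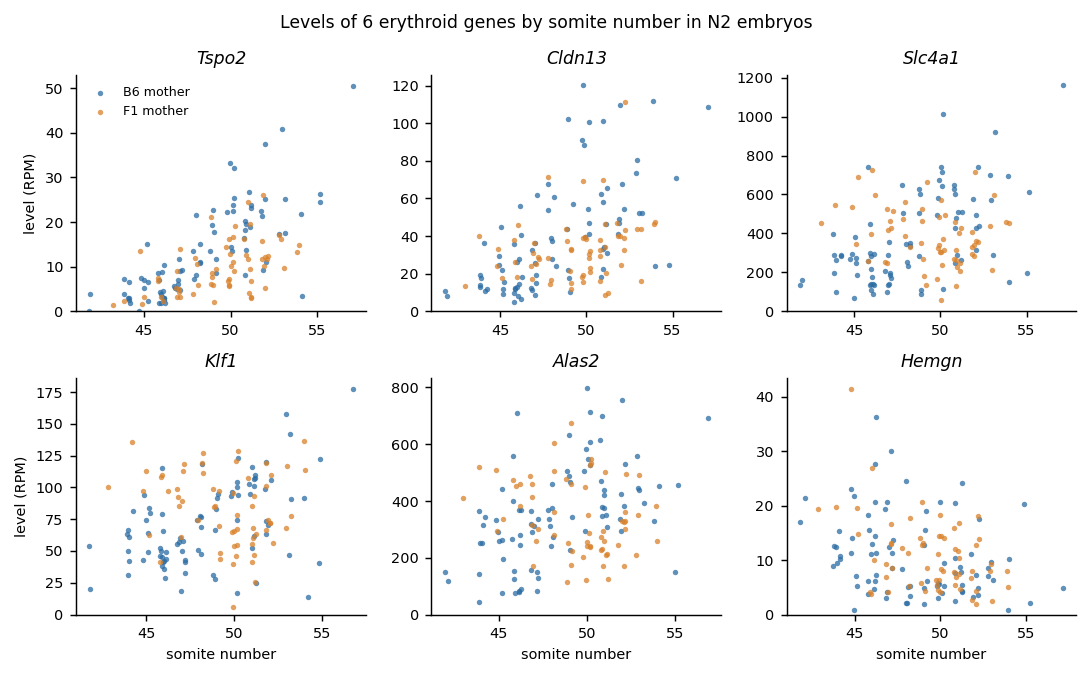
RPM (vertical axes) against somite number (horizontal axes) of 6 members in the 147 staged N2 embryos, a point for each embryo, blue for B6 mothers and orange for F1 mothers. Tspo2 and Cldn13 climb from means of 4.65 and 20.4 RPM at up to 45 somites to 21.3 and 56.9 RPM at 53 or more, Hemgn falls from 15.1 to 7.38 RPM, and Slc4a1, Klf1 and Alas2 rise within a wide scatter.

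Among the transcription factors, Zfpm1 rose most, from 84.5 ± 26.4 RPM (33.1 to 149, median 87.5) in the youngest embryos to 169 ± 57.9 RPM (77.5 to 278, median 168) in the oldest (rho 0.454, lane regressed out 0.273). Klf1 rose from 69.8 ± 28 to 99.7 ± 47.2 RPM, and its rho of 0.265 was 0.428 with lane regressed out. Gfi1b, a repressor needed for red cell and platelet maturation, rose from 9.37 ± 4.76 to 12.9 ± 8.17 RPM (rho 0.225), and Bcl11a, the repressor of embryonic globins in adult cells, passed with rho 0.263 although its means of 82.6 and 86.6 RPM were close and its Pearson's r of 0.122 had a permutation p of 0.141. Nfe2, the haematopoietic subunit of NF-E2, and Tal1 passed after lane was regressed out (0.308 and 0.240). Gata1 (rho -0.140) and Lmo2 (rho -0.111) did not pass, and their lane means ran from 1.68 to 18.8 RPM and from 0.845 to 59.98 RPM, an 11.2-fold and a 70.9-fold range.

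Among the membrane and skeleton genes, Slc4a1, the band 3 anion exchanger, rose from 305 ± 155 RPM (67 to 688, median 284) to 533 ± 285 RPM (150 to 1161, median 514), with rho 0.315 and r 0.351 (0.287 without the 2 extreme embryos). Kel, the Kell endopeptidase, went from 10.4 ± 4.48 to 18.0 ± 9.75 RPM (rho 0.345) and Rhag, the ammonia channel of the Rh complex, from 21.3 ± 9.24 to 35 ± 12.9 RPM (rho 0.294). The skeleton genes Sptb (β-spectrin, rho 0.309), Add2 (β-adducin, 0.278), Ank1 (ankyrin, 0.276) and Tmod1 (tropomodulin, 0.258) also rose, but none of these 4 passed with lane regressed out (0.161, 0.144, 0.227 and 0.109). Rhd and Ermap, both blood group antigens, did the reverse: 0.201 and 0.181 before, and 0.273 and 0.284 after, when both passed. Epor, the erythropoietin receptor, stayed at 25.2 ± 7.85 RPM in the youngest and 23.5 ± 11.4 RPM in the oldest embryos (rho 0.00975, permutation p = 0.907).

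Along the heme chain, 4 of 7 enzymes rose. Alas2, the rate-limiting erythroid enzyme, went from 281 ± 130 RPM (44.1 to 519, median 292) to 401 ± 140 RPM (151 to 694, median 416; rho 0.229), Alad from 194 ± 48.7 to 237 ± 91 RPM (rho 0.306), Ppox from 80.3 ± 26.6 to 148 ± 73.4 RPM (rho 0.285) and Fech from 78.3 ± 15.9 to 111 ± 47.5 RPM (rho 0.317). Alas2, Ppox and the skeleton gene Tmod1 overlap Apex2, B4galt3 and Tstd2 on the opposite strand at their 3′ ends, and as the use of strand in counting is not given in the sources used here, reads of these partners cannot be told apart. With lane regressed out Fech (0.341) and Ppox (0.255) still passed, and Alas2 (0.125) and Alad (0.208) did not. The middle enzymes Uros (-0.0422), Urod (0.0751) and Cpox (-0.166) did not pass, nor did the iron carrier Slc25a37 (0.0215), the glycine carrier Slc25a38 (-0.128) or Abcb10 (0.0579), the mitochondrial transporter that stabilises Slc25a37. Trim10, a RING-finger protein of maturing red cells, did not pass (rho -0.0446, and 0.175 with lane regressed out) and had lane means from 1.13 to 29.4 RPM, but in edgeR with lane its slope was 0.12 ± 0.04 log2 units per somite (SE, adjusted p = 0.038). Hemgn, a nuclear protein of blood progenitors (mm9 chr4:46406861-46426378), was the member that fell, from 15.1 ± 8.4 RPM (0.873 to 41.5, median 14.0) to 7.38 ± 4.75 RPM (0.874 to 20.4, median 7.49), with rho -0.315 (permutation p = 0.00013), r -0.332, r -0.310 without the 2 extreme embryos and -0.255 with lane regressed out.

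The counts were unequal in the 2 kinds of N2 embryo, but with lane in the model no member's slope was shown to differ between them. With lane regressed out, 14 members rose among embryos of B6 mothers (4.68% of all genes) and 0 fell, whereas 0 rose and 0 fell among embryos of F1 mothers (2.54% of all genes rose, and 1677 genes had an unadjusted p under 0.05 in either direction). In edgeR with lane, 0 members passed with F1 mothers, where the smallest adjusted p was that of Tspo2 (0.0848). Tspo2 had rho 0.71 with B6 mothers and 0.358 (q = 0.104) with F1 mothers, Cldn13 0.629 and 0.273, Kel 0.618 and 0.0639, and Slc4a1 0.533 and 0.0759. In a count model with lane, the slopes of Tspo2 were 0.28 ± 0.03 log2 units per somite (SE) with B6 mothers and 0.17 ± 0.05 with F1 mothers. The slope was lower with F1 mothers for 28 of 32 members, but the difference passed for 0 of 32 (edgeR, adjusted p). Without lane in that model it passed for 16 of 32, so lane and mother together cannot be told apart there. Within embryos of F1 mothers and without lane, 5 members that rose overall had a negative rho: Alas2 -0.287, Rhag -0.277, Slc4a1 -0.253, Add2 -0.163 and Klf1 -0.157. When each litter was reduced to its mean, 2 of the 17 members, Tspo2 (0.745) and Cldn13 (0.669), still passed, where 160 of 10007 genes rose.

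**Figure D2:**
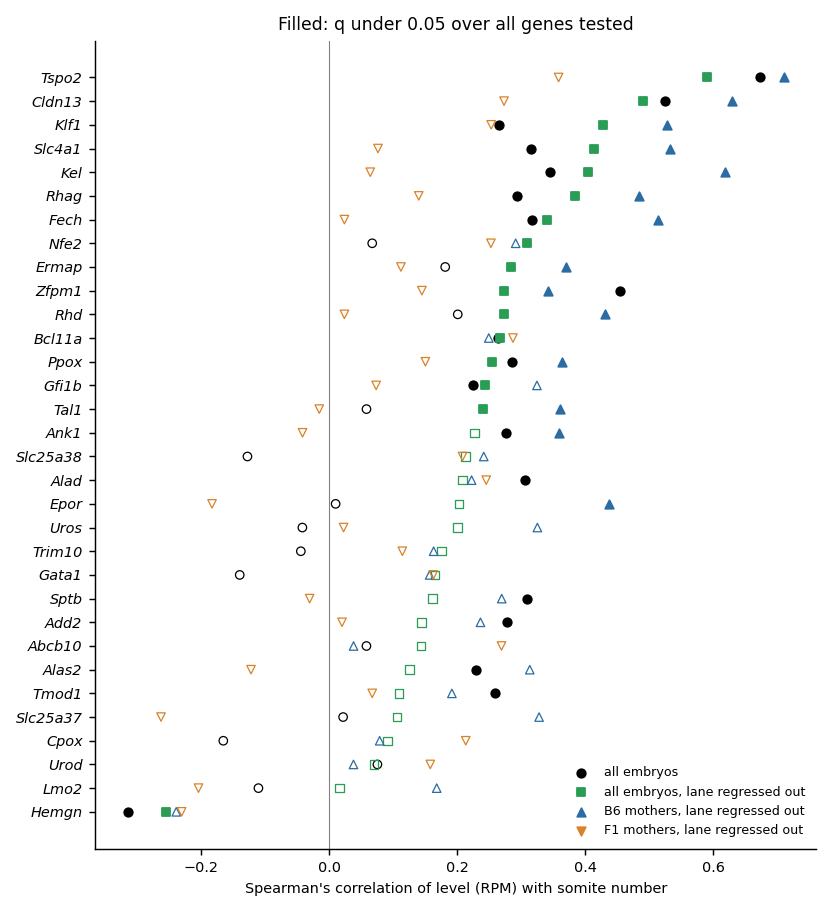
Spearman's rho with somite number (horizontal axis) for the 32 members (rows, ordered by rho with lane regressed out) in 4 settings: all staged N2 embryos, lane regressed out, and embryos of B6 mothers or of F1 mothers with lane regressed out. Filled points have q under 0.05: 18 of 32 over all embryos, 16 with lane regressed out, 14 with B6 mothers and 0 with F1 mothers.

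Other lists moved beside the members. Of the globins, the late β-globins Beta-s (rho 0.643), Hbb-b1 and Hbb-b2 (0.596 each, with near-equal means of 3463 RPM) rose. The embryonic Hba-x (-0.350) and Hbb-bh1 (-0.412) fell, and Hba-a1, Hba-a2 (0.185 each) and Hbb-y (-0.0434) did not pass. Hba-a1 and Hba-a2 had equal means of 10.1 RPM, against 17777 RPM for Hba-x, and the authors had discarded reads from repetitive positions. Of 13 other heme and iron genes 4 rose, among them Trf (transferrin, 0.524), Blvrb (biliverdin reductase B, 0.419) and Steap3 (ferrireductase, 0.223). Of 17 other red cell genes 7 rose, led by Aqp1 (0.617), Pklr (0.435) and Blvrb, and Bnip3l (-0.236) fell. Hepatoblast markers rose as well, 6 of 7 before and 7 of 7 after lane was regressed out, and their summed level had a median of 766 RPM in the youngest (199 to 1411), 1027 RPM in the middle (379 to 2465) and 1416 RPM in the oldest embryos (530 to 2273). No marker of the lists was at 0 in all embryos of a stage. Neutrophil markers rose in 3 of 4 (summed medians 67, 104 and 120 RPM), megakaryocyte markers in 2 of 5, macrophage markers in 2 of 6, endothelium markers in 2 of 7 and neuron markers in 1 of 6. Of the 6 red cell markers, Alas2 rose and Hba-x and Hbb-bh1 fell, and their sum, nearly all embryonic globin, went from a median of 85437 to 76083 to 61765 RPM. The part of these other cell types in the members' rise was not tested.

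The F1 embryos gave the same comparison at greater depth, though with 1 litter at each stage. In B6xCast, litter 3 (58 to 63 somites) was set against litter 5 (48 to 50 somites), and 11 of 32 members were higher in the older litter (7.54% of 13122 genes) and 0 lower (8.42% of genes; edgeR's quasi-likelihood test, Benjamini-Hochberg adjusted p under 0.05). The log2 difference was above 0 for 29 of the 32, with a median of 0.38, against 0.04 for all genes. In CastxB6, litter 2 (46 to 48 somites) was set against litter 1 (41 to 43 somites), and 9 members were higher (16.9% of genes) and 5 lower (15.5% of genes), with a median of -0.02, equal to that of all genes. With read totals in place of TMM scaling, 22 members were higher and 0 lower in B6xCast (all genes 1986 and 471, against 989 and 1105) and 13 higher and 3 lower in CastxB6 (all genes 3091 and 1084, against 2219 and 2031). Each contrast compared 1 litter with 1 litter, so stage and litter cannot be told apart, and litter 2 alone was sequenced on a different pair of runs.

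Tspo2 was higher in the older litter in both crosses. Its RPM was 39.5, 36 and 33.6 in litter 3 and 11.0, 14.7, 18.1, 12.4 and 8.91 in litter 5, a 2.79-fold difference of means (adjusted p = 0.0054, edgeR). In CastxB6 it was 10.3, 7.58, 9.66 and 11.4 in litter 2 and 0.753, 1.91, 2.09 and 2.64 in litter 1, 5.26-fold (adjusted p = 1.0e-04, edgeR). No embryo of an older litter overlapped the younger litter of its cross. Cldn13 stood at 63.2, 68.9 and 62.8 RPM against 34.4, 39, 51.8, 36.3 and 26.8 RPM in B6xCast, 1.73-fold (adjusted p = 0.043, edgeR, lost in 10 of the 16 fits without 1 embryo). In CastxB6 it stood at 28.5, 21.4, 28.3 and 38.7 RPM against 8.63, 10.9, 10.4 and 11.4 RPM, 2.83-fold (adjusted p = 2.2e-04, edgeR). Uros, which did not pass against somite number in the N2 embryos, was the remaining gene higher in both older litters: 21, 23.9 and 21.9 RPM against 10.6 to 14.0 RPM, 1.81-fold, and 15.2, 22.8, 13.6 and 16.8 RPM against 10.3 to 11.0 RPM, 1.59-fold, without overlap in either cross.

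Other calls of B6xCast were membrane genes, the factors Tal1 and Nfe2, the receptor and Hemgn. Kel stood at 48.6, 65.4 and 46.9 RPM in litter 3 and at 24.5, 26.3, 34.7, 16.9 and 13.0 RPM in litter 5, 2.32-fold (adjusted p = 0.0056, edgeR). Ermap was 2.09-fold, Rhd 1.98-fold, Tal1 1.75-fold, Nfe2 1.67-fold, Ank1 1.56-fold and Epor 1.53-fold higher, and none of these overlapped between the litters. Ank1 and Epor were no longer called without replicate 2, 3, 4, 7 or 8 of B6xCast, Hemgn without replicate 2, 6, 7 or 8, and Tal1 without replicate 2. In CastxB6, Gfi1b stood at 20.9, 15.0, 15.9 and 17.1 RPM in litter 2 and at 6.92, 8.47, 10.1 and 9.28 RPM in litter 1, 1.98-fold, and Klf1 at 78.1, 63.7, 73.3 and 92.8 RPM against 47.5, 43.5, 47.8 and 50.9 RPM, 1.62-fold (adjusted p = 0.0084, edgeR), where B6xCast had 1.47-fold (adjusted p = 0.091, edgeR). Add2 was 1.92-fold, Zfpm1 1.69-fold, Rhag 1.67-fold and Slc25a38 1.44-fold higher, also without overlap, but Rhag was no longer called without replicate 1, 2, 4, 5, 7 or 8 of CastxB6. Lower in litter 2 was Sptb, at 6.04, 5.04, 5.04 and 3.76 RPM against 8.34, 8.52, 12.8 and 9.47 RPM (0.508-fold, adjusted p = 3.8e-04, edgeR), together with Hemgn (0.549-fold), Rhd (0.778-fold), Tal1 (0.779-fold) and Urod (0.811-fold), of which Hemgn and Tal1 overlapped between the litters. Of these the call of Rhd was lost in 11 of the 16 fits without 1 embryo, and that of Tal1 without replicate 1, 4, 7 or 8 of CastxB6.

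Hemgn moved in opposite directions in the 2 crosses. It stood at 14.4, 23.3 and 14.4 RPM in litter 3 against 10.9, 10.3, 8.34, 8.01 and 7.85 RPM in litter 5, and at 12.2, 16.7, 9.38 and 7.83 RPM in litter 2 against 28, 20.1, 16.2 and 19.6 RPM in litter 1. The difference between the litter contrasts was 1.79 on the log2 scale (adjusted p = 0.0040, edgeR). It was tested for every member and passed for 12 of 32 (20.1% of genes), Hemgn, Rhd, Sptb, Tal1 and Kel having the largest positive values. It did not pass for Gfi1b (adjusted p = 0.105), Klf1 (0.551) or Rhag (0.78), so these were not shown to differ between the crosses.

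**Figure D3:**
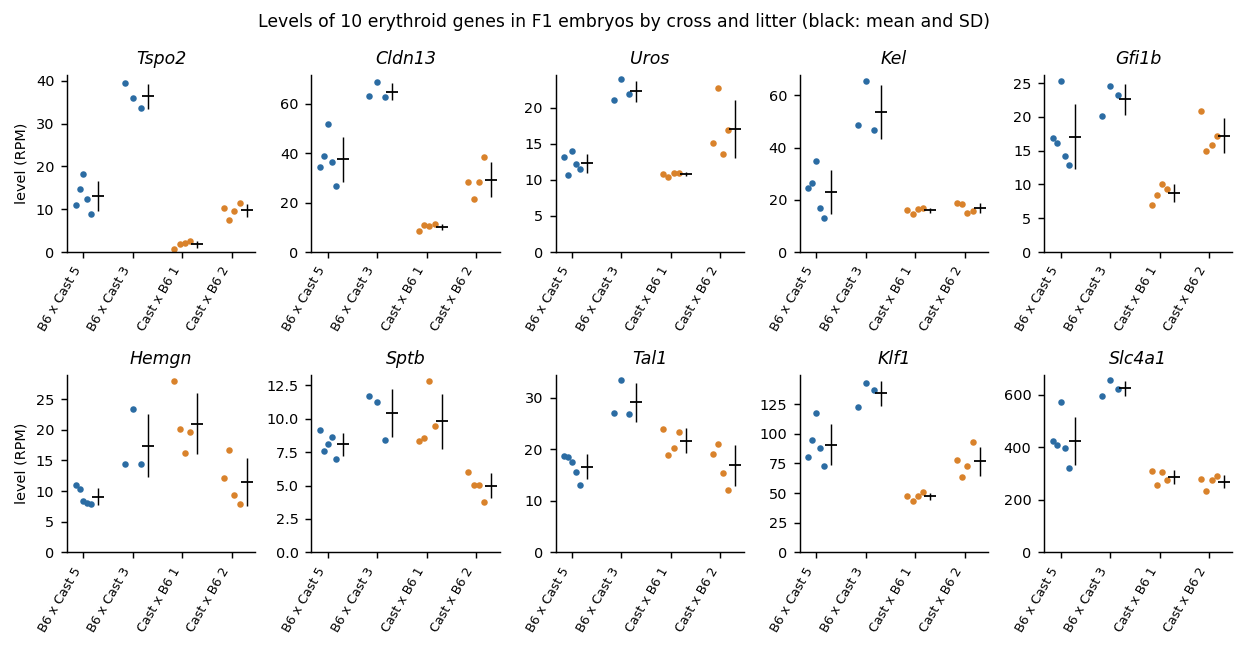
RPM (vertical axes) of 10 members in the F1 embryos by litter, a point for each embryo with the mean and SD (n = 3 in litter 3, 5 in litter 5, 4 in each of litters 1 and 2). Tspo2 and Cldn13 are higher in the older litter of both crosses, at 36.4 against 13.0 RPM and 9.72 against 1.85 RPM for Tspo2, and Hemgn is higher in the older litter of B6xCast and lower in that of CastxB6.

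Litter 5 of B6xCast and litter 2 of CastxB6 were the closest in stage across the reciprocal crosses. There 10 members were higher in litter 5 (6.52% of genes) and 1 lower (7.58% of genes), and these counts were the same without TMM scaling (all genes 530 higher and 1175 lower, against 855 and 994). Of the 7 heme enzymes 5 were higher and Uros lower: Ppox by 1.39-fold, Alas2 by 1.37-fold, Fech by 1.33-fold, Urod by 1.26-fold and Alad by 1.23-fold. The call of Uros was lost in 7 of the 16 fits without 1 embryo (replicate 5, 7 or 8 of B6xCast and 2, 5, 6 or 8 of CastxB6), that of Alad in 6 (replicate 5, 6 or 7 and replicate 5, 6 or 8), that of Fech without replicate 6 of either cross and that of Ank1 without replicate 6 of CastxB6. Rhd (1.65-fold), Sptb (1.63-fold), Slc4a1 (1.57-fold), Ank1 (1.39-fold) and Nfe2 (1.37-fold) were the other 5. Slc4a1 stood at 424, 408, 573, 396 and 320 RPM in litter 5 and at 278, 232, 277 and 293 RPM in litter 2, and Alas2 at 364, 355, 444, 386 and 308 RPM against 281, 235, 279 and 288 RPM, neither with overlap. Summed red cell markers stood at 71647 to 89824 RPM in litter 5 and 53708 to 66814 RPM in litter 2. Of these 6 markers 1 was called higher, Alas2, which is itself a member. Megakaryocyte markers stood at 547 to 659 against 387 to 496 RPM, with 3 of 6 called higher and a median log2 difference of 0.54, where the members had 0.30. Of the hepatoblast markers 1 of 7 was called higher, and of the neutrophil markers 0 of 5. The part of these markers' cells in the members' difference was not tested. The litters differ in mother's strain, direction of cross, sequencing run and by up to 4 somites, and these cannot be told apart.

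Beside the contrasts of older with younger litters the hepatoblast markers were higher in 7 of 7 and 6 of 7 genes in the older litters (summed levels of 2892 to 3624 RPM in litter 3, 1249 to 1929 in litter 5, 1323 to 1501 in litter 2 and 570 to 812 in litter 1). Neutrophil markers were higher in 0 of 5 and 3 of 5 and lower in 1 and 0, and megakaryocyte markers higher in 0 of 6 and 4 of 6 and lower in 2 and 0. Of 6 red cell markers 2 and 1 were higher and 3 and 3 lower, with summed levels of 27575 to 37354 RPM in litter 3 and 98662 to 133152 RPM in litter 1. Of 21 other red cell genes 7 and 6 were higher and 0 and 0 lower. Of 15 other heme and iron genes 3 and 5 were higher and 1 and 4 lower, and of 8 globins 5 and 3 were higher and 3 and 3 lower. The part of other cell types in the members' differences was not tested.

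The genotype of the mother was compared over the N2 embryos, and Cpox and Tmod1 were called. Over the 154 N2 embryos, 1 of 30 autosomal members was higher with F1 mothers (4.28% of 9733 genes) and 1 was higher with B6 mothers (0.75% of genes; two-sided Mann-Whitney test, Bonferroni-adjusted p under 0.01). With a Benjamini-Hochberg q under 0.05 instead, 9 of the 30 members and 3073 of the 9733 genes were called. Cpox, coproporphyrinogen oxidase, ran from 4.36 to 242 RPM with a median of 53.6 in embryos of B6 mothers and from 7.19 to 384 RPM with a median of 139 in embryos of F1 mothers. Its means were 68.4 ± 59.2 RPM (SD, n = 89) and 142 ± 89.95 RPM (SD, n = 65), 2.07-fold (adjusted p = 9.9e-04), with wide overlap, and its lane means ran from 15.7 to 275 RPM. Tmod1 ran from 19.7 to 130 RPM with a median of 75.8 and from 32 to 109 RPM with a median of 52.3, 73.2 ± 24.2 against 55.7 ± 14.7 RPM (adjusted p = 0.0071), also overlapping. With litters as the unit, with lanes as the unit, and in limma voom models that took lane, or else litter, as a random effect, 0 members passed. Those 4 settings gave 1279, 399, 1355 and 909 of all genes at an unadjusted p under 0.05. Nfe2 averaged 21.4 and 33 RPM (adjusted p = 0.079). X-linked Gata1, which was not tested, averaged 5.19 RPM with B6 and 12.9 RPM with F1 mothers.

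Allele-specific reads in heterozygous embryos compared the B6 and Cast copies of each gene within a cell type mixture common to both. Each read over a strain difference gave 1 vote, shared among its differences, and the B6 allele fraction (BAF) is the B6 share of the votes. Of 24 autosomal members with enough votes, 3 had a higher B6 copy (9.7% of 9084 genes) and 3 a higher Cast copy (9.17% of genes), by a paired test over F1 and heterozygous N2 embryos with a Bonferroni-adjusted p under 0.01 and a pooled BAF outside 0.45 to 0.55. The other 8 autosomal members in the tables, Epor, Sptb, Cldn13, Trim58, Car1, Alad, Urod and Ppox, had too few votes. The median pooled BAF of the 24 was 0.506.

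The strongest B6 excess was in Gfi1b, with a BAF of 0.635 to 0.751 in the 8 B6xCast embryos (mean 0.698 ± 0.038 SD, n = 8) and 0.627 to 0.848 in the 8 CastxB6 embryos (0.744 ± 0.064 SD, n = 8), and pooled values of 0.718 and 0.749 in heterozygous N2 embryos of B6 and F1 mothers. The B6 copy was higher in 84 of 87 embryos (adjusted p = 5.9e-18). Abcb10, a carrier, stood at 0.582 to 0.617 in B6xCast and 0.580 to 0.659 in CastxB6, with the B6 copy higher in 82 of 86 embryos (adjusted p = 4.1e-20). Uros stood at 0.554 to 0.675 and 0.627 to 0.728, with the B6 copy higher in 74 of 92 embryos (adjusted p = 3.2e-08), but it was not called in F1 embryos alone (adjusted p = 0.035). No F1 embryo lay at or below an equal share for any of these 3 genes.

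The Cast copy was higher for Nfe2, Cpox and Slc25a37, the mitoferrin of red cells. Nfe2 stood at 0.405 to 0.449 in B6xCast and 0.289 to 0.4927 in CastxB6, and lower still in N2 embryos, at pooled values of 0.290 and 0.363. The Cast copy was higher in 85 of 88 embryos (adjusted p = 1.1e-20). Cpox stood at 0.400, 0.382, 0.410, 0.381, 0.373, 0.404, 0.382 and 0.364 in B6xCast and at 0.352, 0.327, 0.160, 0.316, 0.199, 0.283, 0.285 and 0.223 in CastxB6, so that the crosses did not overlap, but the pooled N2 values were higher, 0.409 and 0.470, and the Cast copy was higher in 76 of 98 embryos (adjusted p = 3.7e-04). Slc25a37 stood at 0.388 to 0.465 and 0.303 to 0.407, with the Cast copy higher in 73 of 101 embryos (adjusted p = 0.0022). In heterozygous N2 embryos alone neither Cpox (BAF 0.442, adjusted p = 0.511) nor Slc25a37 (BAF 0.458, adjusted p = 0.63) was called. Cast votes made up 1.00% of votes for Slc25a37, 1.94% for Lmo2 and 3.94% for Fech in embryos homozygous for B6, where 0.194% was the share over all genes. A larger share in homozygotes lowers a measured BAF, and of these 3 Slc25a37 alone was called.

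Klf1 was not called (BAF 0.535), and within CastxB6 its litters stood apart: 0.449, 0.371, 0.338 and 0.428 in litter 1 and 0.525, 0.553, 0.504 and 0.560 in litter 2, against 0.497 to 0.575 in B6xCast. It was singled out after its values were seen. A change of BAF with stage was tested in N2 embryos, and 0 of 16 members passed (0.299% of 3342 genes, Benjamini-Hochberg q under 0.1). Among them Klf1 had rho 0.321 (n = 55, unadjusted p = 0.017, q = 0.473) and Cpox -0.273 (n = 65, unadjusted p = 0.028, q = 0.516), which were 2 members with an unadjusted p under 0.05. Nor did parent of origin give a call: 0 of 27 members had the maternal or the paternal copy higher in both F1 crosses, where 0.405% of 11598 genes did (two-sided binomial tests, Bonferroni-adjusted p under 0.01).

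The X-linked members followed the inheritance of the X. Embryos were split by Xist, the RNA that silences an X in females, at 5 RPM. Gata1 votes were 0.102% Cast in the 4 low-Xist B6xCast embryos and 0 B6 against 2221 Cast votes in the 5 low-Xist CastxB6 embryos, so each carried its mother's allele. In the high-Xist F1 embryos, 71.8% (4 B6xCast) and 74.4% (3 CastxB6) of the Gata1 votes were Cast, while Xist votes were 73.7% and 78.2% B6. N2 embryos of B6 mothers can carry no Cast X and gave 0.284% and 0.555% Cast. Among the 23 low-Xist embryos of F1 mothers with at least 20 votes, 15 had a BAF under 0.1 and 8 a BAF over 0.9, and the 13 high-Xist embryos ran from 0.143 to 1. Alas2 had fewer votes but the same pattern, with 64 B6 and 0 Cast votes in low-Xist B6xCast, 0 B6 and 75 Cast votes in low-Xist CastxB6, and 70.2% and 65.3% Cast votes in high-Xist B6xCast and CastxB6.

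The level of a gene could also be compared between N2 embryos that were heterozygous and homozygous at that gene, with lane, somite number, Xist and 15 principal components regressed out of log2(RPM + 1). Of 30 autosomal members, 1 was higher in heterozygotes (14.8% of 9733 genes) and 5 were lower (14.3% of genes; rank-sum test, Benjamini-Hochberg q under 0.01). Nfe2 ran from 3.16 to 70.3 RPM with a median of 33 in 72 heterozygotes and from 0 to 53.6 RPM with a median of 19.7 in 82 homozygotes, means of 32.4 ± 16.7 and 21 ± 13.1 RPM (SD). The adjusted difference was 0.57 ± 0.06 (SE) on the log2 scale. Cldn13 ran from 5.09 to 109 RPM with a median of 23.5 in 74 heterozygotes and from 8.08 to 120 RPM with a median of 40.2 in 80 homozygotes, 28.8 ± 19.2 against 45.7 ± 26.8 RPM, an adjusted difference of -0.56 ± 0.06. Groups overlapped for both genes, and in each the median of the higher group lay above the mean of the lower one.

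Smaller differences were found for Gfi1b (10.1 ± 4.44 RPM in 71 heterozygotes against 13.0 ± 6.37 RPM in 83 homozygotes, adjusted -0.26 ± 0.07), Abcb10 (43.8 ± 14.2 in 70 against 53.3 ± 14.8 in 84, -0.17 ± 0.03), Klf1 (72.9 ± 29.1 in 66 against 78.4 ± 32.9 in 88, -0.13 ± 0.04) and Slc25a38 (70.9 ± 17.6 in 83 against 77.9 ± 19.999 in 71, -0.11 ± 0.03). The calls of Gfi1b and Klf1 held only with 15 components: with 5 components, with none, and with nothing regressed out, q was 0.0764, 0.244 and 0.0402 for Gfi1b and 0.166, 0.133 and 0.417 for Klf1, whose difference was then -0.06, -0.09 and -0.05, and Slc25a38 was lost in the last 2 (q = 0.0172 and 0.217). The ratio of mean RPM in heterozygotes to homozygotes implies a BAF if the copies act independently, and this could be set beside the votes. Implied values came from N2 embryos alone, and measured ones pooled the votes of F1 and heterozygous N2 embryos. The implied and measured values were 0.609 and 0.607 for Abcb10, 0.643 and 0.718 for Gfi1b, 0.324 and 0.402 for Nfe2, 0.537 and 0.535 for Klf1, and 0.549 and 0.533 for Slc25a38. They lay farther apart for Uros (0.478 and 0.643), Cpox (0.482 and 0.380), Kel (0.417 and 0.530) and Tal1 (0.511 and 0.364), and stood at 0.407 and 0.419 for Slc25a37. Uros, Kel and Tal1 fell on opposite sides of 0.5, as did others such as Ank1 (0.460 and 0.547) and Ermap (0.536 and 0.470). In heterozygous N2 embryos alone the votes gave 0.469 for Kel, on the same side as its implied value. They gave 0.627 for Uros, 0.408 for Tal1, 0.543 for Ank1 and 0.481 for Ermap, still on the opposite side. For Nfe2 they gave 0.330, for Gfi1b 0.733, for Cpox 0.442 and for Slc25a37 0.458. Implied values rest on means not adjusted for lane, which held 69.2% of the variance of Uros, 61.6% of Cpox, 39.7% of Kel and 64.4% of Tal1. The adjusted differences of Uros and Cpox had the direction of their pooled votes, and those of Kel (0.0048) and Tal1 (-0.0073) did not. That of Kel had the direction of its votes in heterozygous N2 embryos (469 B6 and 531 Cast), while its F1 votes went the other way (BAF 0.562). For Cldn13 the implied value was 0.793 and the votes were too few to measure one. Of the 6 genes with unequal alleles, Gfi1b, Abcb10 and Nfe2 also differed in level with 15 components, each in the direction of its votes, and Abcb10 and Nfe2 did so under the 3 other adjustments too. Uros (adjusted -0.10 ± 0.06), Cpox (0.28 ± 0.10) and Slc25a37 (0.08 ± 0.06) did not pass, although Cpox did with lane, somite number and Xist alone (0.49 ± 0.15, q = 0.0052). Beside the members, 4 of 8 globins, 3 of 12 other heme and iron genes and 3 of 17 other red cell genes differed by own genotype in either direction.

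**Figure D4:**
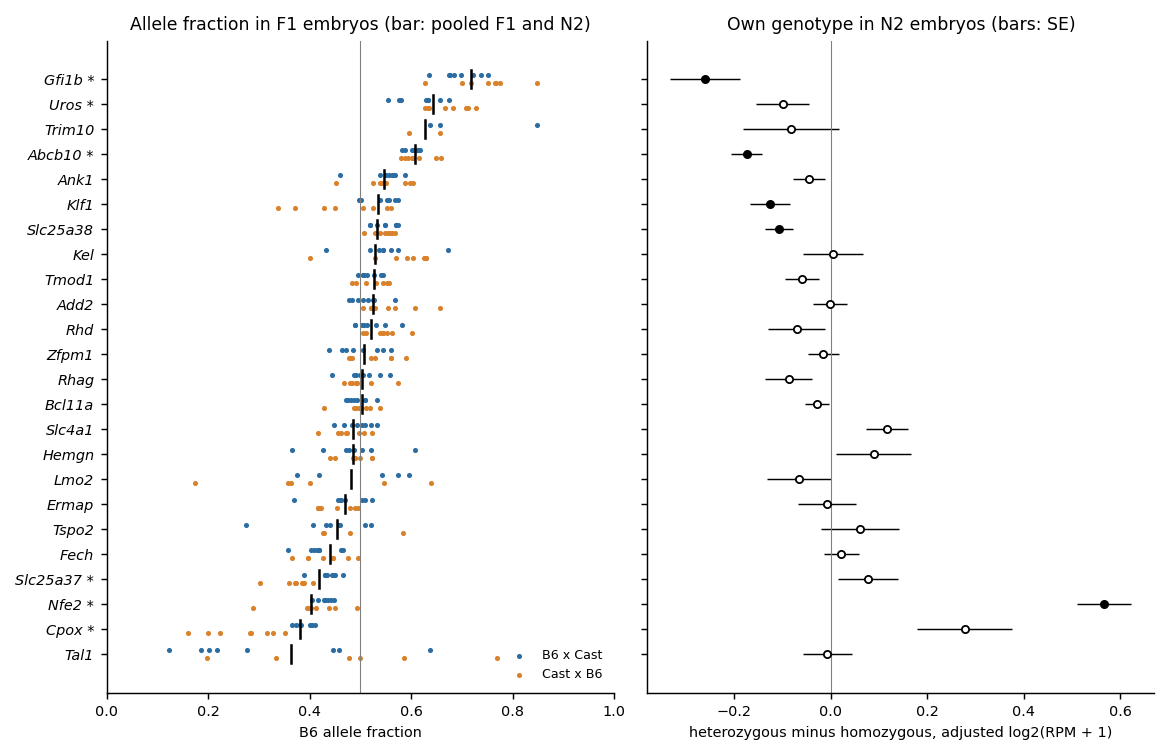
Left, the B6 allele fraction (horizontal axis, from 0 to 1) of 24 members in each F1 embryo with at least 20 votes, with a bar at the pooled value and an asterisk on the 6 called genes. Right, the adjusted log2 difference in level of heterozygous minus homozygous N2 embryos with its SE for the same 24 members, filled where called. Nfe2 at 0.57 lies farthest from 0, and Cldn13, with too few votes, is not drawn.

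Across the 154 N2 embryos the members varied together. Of the 496 pairs of 32 members, 334 (67.3%) had a positive Spearman's rho between RPM values, with a median of 0.199 and a range from -0.635 to 0.857, against a median of 0.010 between members and other genes. With lane regressed out of the ranks, 443 pairs (89.3%) were positive, the median was 0.251 and the range -0.257 to 0.792, against 0.0091. With somite number regressed out as well, 429 pairs were positive and the median was 0.215. These are descriptions: every pair shares the same libraries, depths and litters.

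With lane regressed out, the closest pair was Klf1 and Slc4a1 (0.792), a factor and a membrane gene. Klf1 also ran with Fech (0.679), and Slc4a1 with Fech (0.733) and Alas2 (0.681). Alad and Urod, both cytosolic enzymes of the heme chain, had rho 0.743, and Alas2 and Alad 0.689. The blood group genes formed a trio: Kel and Ermap 0.707, Rhd and Kel 0.706, and Rhd and Ermap 0.691. Cldn13 and Tspo2, the steepest genes with stage, had 0.670, and Gata1 and Cpox 0.692. By role, the median was 0.402 over the 45 pairs of membrane genes, 0.343 over the 70 pairs of a membrane gene with a heme enzyme, 0.310 over the 21 pairs of heme enzymes and 0.202 over the 28 pairs of transcription factors.

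Each member was also set against the mean standardized level of all the others. Fech (0.738), Rhd (0.723), Kel (0.721), Klf1 (0.713), Slc4a1 (0.703) and Rhag (0.693) were the most central, and Lmo2 (-0.031), Hemgn (0.109) and Slc25a37 (0.218) the least. Lane changed some pairs more than others: Lmo2 and Slc25a37 had 0.723 before and 0.157 after lane was regressed out, and Lmo2 and Ppox -0.635 and -0.146. Lane held 88% of the variance of Lmo2, 85.5% of that of Slc25a37 and 74.9% of that of Ppox. Of 9975 other genes, the 10 most like the mean of the members with lane regressed out were Blvrb (0.780), Hbb-b1 and Hbb-b2 (0.742 each, with near-equal levels), Beta-s (0.701), the iron carrier Trf (0.687), Tspan33 (0.670), Mkrn1 (0.670), Gpx1 (0.667), and the hepatoblast genes Afp (0.663) and Ttr (0.646). The median rho with that mean was 0.519 for the hepatoblast markers (7 of 7 positive), 0.427 for other red cell genes, 0.357 for globins and 0.324 for neutrophil markers, against 0.017 for all other genes.

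**Figure D5:**
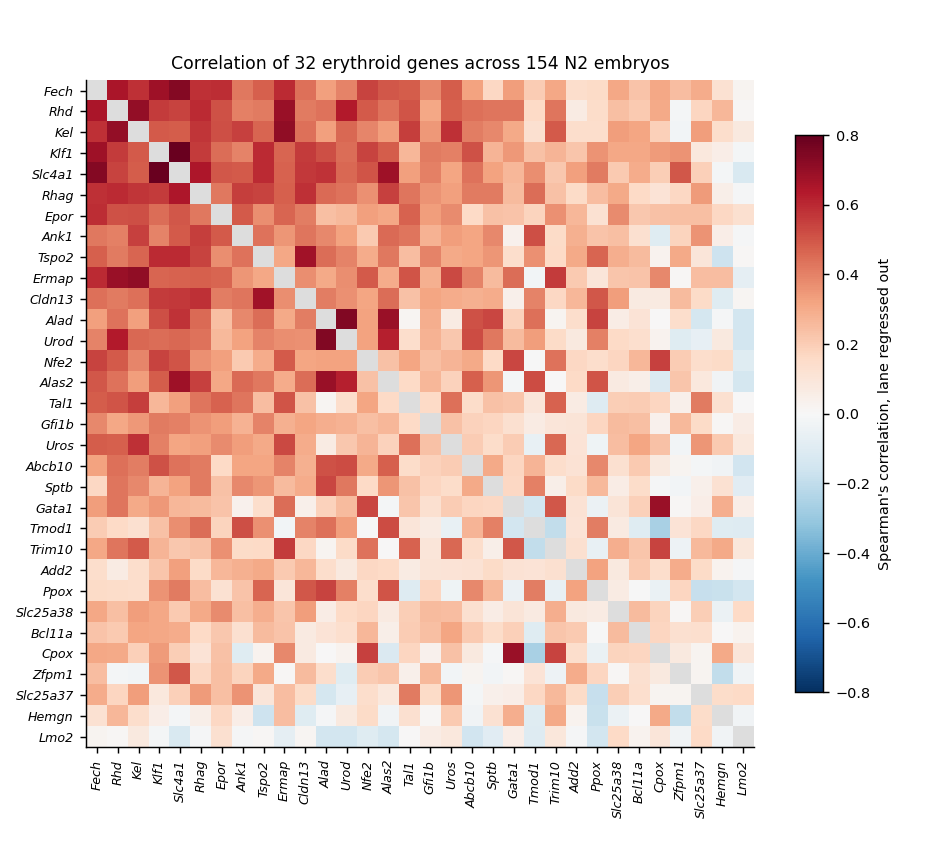
Heat map of Spearman's rho (colour) between the 32 members over 154 N2 embryos with lane regressed out of the ranks. Genes are ordered on both axes by their correlation with the mean of the other members, highest first. Most cells are positive (443 of 496 pairs), the strongest being Klf1 with Slc4a1 at 0.792, and Lmo2 and Hemgn run as pale lines.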

How the data were processed

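Whole embryos were sequenced from the 3′ ends of their mRNA. Per the labels and methods, the authors trimmed poly(A), aligned reads with Bowtie2 to mm9 and to a Cast version of it with transcripts, discarded reads from repetitive positions and deposited raw read counts per RefSeq gene, with 2 runs summed for each F1 embryo. The authors also deposited allele votes per gene, which are estimated counts because a read over several strain differences splits its vote, and genotype codes per gene and N2 embryo. Totals of 245220 to 38234229 counts set the precision. Intervals cover counting error only.

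Counts were divided by the total on genes to give RPM. Groups came from the labels, 8 N2 columns whose labels name no mother and 6 without genotypes were left out, and 0 columns belonged to no sample. Spearman, Mann-Whitney, binomial and rank-sum tests used scipy 1.17.1 in Python 3.11.15. F1 counts were fitted with edgeR 4.0.16 (TMM, quasi-likelihood, 16 embryos in 4 litters, mean of at least 1 RPM). DESeq2 1.42.0 and limma 3.58.1 in R 4.3.3 gave alternatives. In place of the hidden factors of the study's methods, 15 principal components were used, and 7 missing somite numbers were filled by litter or lane means. Scripts were tested on simulated data.

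All 35 listed genes were accounted for, those that passed a test with values and 1 or 2 of each group that did not, together with the 10 most alike genes and the lists of globins, other heme and iron genes, other red cell genes and cell type markers. Members and lists were chosen with earlier results of these data known. Alternatives changed lane, litter, mother, flowcell, scaling, filters, tools and thresholds. The fits by mother with lane regressed out, and the count slope without lane, were added after seeing the data.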

Additional observations from a re-analysis of the deposited data

Results flagged for a closer look

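In 106 groups of 8 F1 embryos, 9 had a value set apart from the rest by Dixon's test at the 95% level. For even and independent groups chance would give about 1 in 20, or 5.3. Each group was a whole cross with 2 litters of unlike stage, and the groups share embryos, so 5.3 is only a rough guide. In RPM these were Hemgn in B6xCast replicate 2, at 23.3 RPM (7.85 to 14.4 in the others), and Slc25a37 in CastxB6 replicate 1, at 50.9 RPM (32.7 to 40.7). In B6 allele fraction they were Ank1 in B6xCast replicate 7, at 0.461 (95% Wilson interval 0.353 to 0.572, others 0.539 to 0.587), and Bcl11a in CastxB6 replicate 8, at 0.428 (0.395 to 0.463, others 0.488 to 0.539). Ermap in B6xCast replicate 6 stood at 0.368 (0.294 to 0.449, others 0.456 to 0.524), and Kel in CastxB6 replicate 3 at 0.4 from 40 votes (0.263 to 0.554, others 0.529 to 0.630). Slc25a37 stood at 0.388 in B6xCast replicate 8 (0.341 to 0.437, others 0.430 to 0.465) and at 0.303 in CastxB6 replicate 3 (0.265 to 0.343, others 0.359 to 0.407), and Tspo2 in B6xCast replicate 7 at 0.275 from 51 votes (0.171 to 0.409, others 0.407 to 0.521). For Ank1, Kel, Slc25a37 in B6xCast and Tspo2 the interval reaches the nearest other embryo.

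The older litter differed from the younger one by an unequal amount in the 2 F1 crosses for 12 of 32 members, by edgeR's test of that difference (log2, B6xCast minus CastxB6). It was positive for Hemgn (1.79, adjusted p = 0.0040), Rhd (1.31, 0.0047), Sptb (1.30, 0.0040), Tal1 (1.14, 0.0046), Kel (1.10, 0.024), Ermap (0.93, 0.024), Ank1 (0.67, 0.029), Alas2 (0.62, 0.027) and Urod (0.54, 0.0061). It was negative for Zfpm1 (-0.93, adjusted p = 0.012), Add2 (-0.87, 0.0089) and Slc25a38 (-0.35, 0.048).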

How the results depend on the processing

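No paired analysis was possible because replicate numbers only name embryos in accession order and the labels pair no embryo of one group with one of another. With somite number 17 of the 32 members rose and 1 fell. Over the same 32 members, 4 rose and 2 fell with F1 mothers alone (2032 and 284 of 10007 genes). With F1 mothers and lane regressed out these were 0 and 0 (254 and 19 genes). With B6 mothers alone 2 fell (3478 genes), and 0 with lane regressed out as well (236). In flowcell 1, 7 rose (1150 genes), and in flowcell 2, 2 fell (2448 genes). Over litter means 2 rose and 0 fell (160 and 14 genes). Negative rho with F1 mothers was found for Alas2 (-0.287), Rhag (-0.277), Slc4a1 (-0.253), Add2 (-0.163) and Klf1 (-0.157), and with lane regressed out for Alas2 (-0.122), Ank1 (-0.042) and Sptb (-0.031), while Trim10 had a positive slope with lane (0.12 in edgeR, 0.13 in DESeq2). The 1 member higher with F1 mothers and 1 with B6 mothers became 6 and 3 under Benjamini-Hochberg (1864 and 1209 of 9733 genes). They became 5 and 4 in edgeR (1402 and 1070 genes) and in DESeq2 (1460 and 1254 genes). They were 0 and 0 over litter means, over lane means, in both voom fits and in flowcell 1 (32 and 180 genes). None was higher with B6 mothers (0) in flowcell 2 (0 genes), at 46 to 52 somites (49), after TMM (59) or without globin reads (74). Without TMM, 22 members in place of 11 were higher in litter 3 and 3 in place of 5 lower in litter 2, with the median of all genes at 0.20 in place of 0.04 and at 0.10 in place of -0.02. Without a filter, 0 in place of 1 was lower in litter 5 against litter 2. Leaving out each F1 embryo gave 6 to 14 higher in litter 3 (6 without B6xCast replicate 2, 7 without replicate 7 or 8), 8 to 10 higher and 3 to 5 lower in litter 2 (3 without CastxB6 replicate 1, 4, 7 or 8), and 7 to 11 higher and 0 to 1 lower in litter 5 against litter 2. The 3 members with a higher Cast copy became 5 under Benjamini-Hochberg (1412 of 9084 genes) and 1 in N2 embryos alone (699 genes). The 1 higher and 5 lower in heterozygotes became 2 and 2 without principal components (1002 and 883 of 9733 genes). With nothing regressed out 2 were lower (514 genes), and with 5 components 3 were lower (1276 genes). Median coexpression was 0.199, and 0.251 after TMM, 0.232 without globin reads, 0.251 without lane and 0.215 without lane and stage. The cause of these changes was not tested.

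Over all genes, 2206 calls with somite number became 1151 with lane regressed out, 5161 with B6 mothers, 3920 in flowcell 2, 174 over litter means, 1023 in edgeR and 1218 in DESeq2 with lane, and 704 and 273 with B6 and F1 mothers and lane regressed out. For mother, 490 became 3073, 2472 in edgeR, 2714 in DESeq2, 212 and 24 in the flowcells, 0 over litter or lane means, and 1 and 0 in voom. Unequal alleles went from 1714 to 2889 and to 1105 in F1 embryos alone, changes of allele fraction with stage from 10 to 2, 63, 2 and 17, and own-genotype calls from 2832 to 1885 and 1183. Depth limits the N2 embryos most: 245220 reads make 5 RPM about 1 read.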

Other observations

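The 8 N2 columns whose labels name no mother were put in no comparison. The summed level of the 34 erythroid genes in them ran from 0 to 19608 RPM with a median of 865 RPM, where the 154 N2 embryos of named mothers ran from 1316 to 4234 RPM with a median of 2187 RPM. In the same 8 columns the globin sum ran from 0 to 259259 RPM. The sums of the heme enzymes and of the transcription factors each had a median of 0 RPM there. The read totals of these columns are not given here, so a difference in depth cannot be told apart from one in level.

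Within CastxB6 litter 1, replicate 3 was low for 3 members that its litter mates held at higher levels: Gata1 at 4.26 RPM (21 to 26.6 in the others), Cpox at 37.9 RPM (103 to 143) and Trim10 at 1.25 RPM (3.86 to 9.29). Its Cpox allele fraction of 0.160 was the lowest of the 16 F1 embryos, as was its Nfe2 fraction of 0.289. These values were picked out after they were seen, and no test was made of them.

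Gata1, Cpox and Trim10 also shared high spread between N2 lanes, with lane means from 1.68 to 18.8 RPM, from 15.7 to 275 RPM and from 1.13 to 29.4 RPM. These ranges were 11.2-fold, 17.5-fold and 26.1-fold. Such spread was not particular to them, as lane means ranged 70.9-fold for Lmo2 and 16.4-fold for Slc25a37.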
